A study of Mus musculus with 2 samples.

Results

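Fos, Jdp2 and Batf, 3 genes of the AP-1 family of transcription factors, follow each other in this order on mouse chromosome 12. They were described over the interval from 86790000 to 87080000 (mm9), which held 44 of the 86148 sites of STAT3 or STAT5 reads called along the genome. The interval was chosen from these same reads, because a tall site near 87046700 in Batf was known to be higher with STAT3, so every level and ratio below is a description and none was tested. Gene limits were known to about 1 kb, as 86815000 to 86818000 for Fos, 86940000 to 86981000 for Jdp2 and 87028000 to 87050000 for Batf, and exons and introns could not be told apart. A site was assigned to a gene when its centre lay in the gene or within 10 kb of it, which gave 5 sites for Fos, 11 for Jdp2, 8 for Batf and 20 for none of them.

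Chromatin immunoprecipitation sequencing, which reads the DNA fragments that an antibody pulls down with a protein, was done once with an antibody to STAT3 and once with antibodies to STAT5a and to STAT5b combined. Both libraries came from sorted naive CD4+ T cells of wild type C57BL/6J mice, cultured for 3 days with antibodies to CD3 and CD28, IL-6 at 20 ng/ml, TGF-beta at 2 ng/ml, anti-IL-4 and, as the labels write it, anti-IL-2, a culture that turns them into T helper 17 (Th17) cells. The STAT3 group was given IL-6 at 40 ng/ml for 30 minutes and the STAT5 group IL-2 at 200 IU/ml for 30 minutes before fixation with 1% formaldehyde. The antibody and the cytokine differed together, no input library was analysed here, the number of animals is not given, and the labelled cell type could not be checked in genomic DNA. A higher level can mean more cells with the factor on DNA or more factor per cell, and these cannot be told apart. Between the libraries it can also come from the antibody or from the share of reads that fall outside sites.

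AP-1 factors bind DNA as pairs through a basic region and a leucine zipper. Fos pairs with Jun proteins and activates transcription as an immediate early gene after many stimuli. Batf has the zipper but no activation domain of its own, binds with Jun proteins and IRF4, and is needed for Th17 differentiation in mice. Jdp2 pairs with Jun proteins and others and acts mostly as a repressor. STAT3 is activated by IL-6 and STAT5 by IL-2, and the upstream region of Fos is a classic target of STAT factors through its sis-inducible element. STAT pairs commonly recognise the palindrome TTCNNNGAA.

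The promoter windows of the 3 genes are shown because STAT3 reads piled up just before the approximate starts of Fos and Batf. They are RefSeq sequences of 300 bases on GRCm38.p6, a build whose positions cannot be set beside the mm9 positions of the reads, and for Jdp2 the first of 3 windows is given. Capitals mark the 50 bases from the RefSeq start onward.
Batf, chr12:85686470-85686769, strand +: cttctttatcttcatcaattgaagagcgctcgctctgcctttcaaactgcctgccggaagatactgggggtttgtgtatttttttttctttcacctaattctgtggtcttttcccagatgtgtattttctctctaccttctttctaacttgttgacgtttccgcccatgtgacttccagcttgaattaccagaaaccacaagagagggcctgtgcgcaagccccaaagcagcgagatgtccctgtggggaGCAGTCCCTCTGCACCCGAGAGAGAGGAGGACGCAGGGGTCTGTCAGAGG
Fos, chr12:85473640-85473939, strand +: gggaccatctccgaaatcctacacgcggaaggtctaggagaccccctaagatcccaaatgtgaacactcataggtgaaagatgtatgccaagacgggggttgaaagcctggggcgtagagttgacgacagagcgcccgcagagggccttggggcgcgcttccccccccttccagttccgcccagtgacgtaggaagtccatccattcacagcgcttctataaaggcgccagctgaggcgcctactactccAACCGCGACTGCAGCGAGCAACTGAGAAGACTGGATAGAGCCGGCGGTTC
Jdp2, chr12:85598855-85599154, strand +: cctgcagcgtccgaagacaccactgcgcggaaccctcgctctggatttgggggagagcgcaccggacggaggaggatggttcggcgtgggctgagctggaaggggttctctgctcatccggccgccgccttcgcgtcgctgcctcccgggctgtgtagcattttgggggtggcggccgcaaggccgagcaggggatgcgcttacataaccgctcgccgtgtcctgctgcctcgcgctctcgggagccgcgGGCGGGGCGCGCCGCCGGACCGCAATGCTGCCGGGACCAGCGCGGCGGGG
All 3 members were found in the table of sequences. Neither TTCNNNGAA nor the AP-1 motif TGANTCA, searched on both strands, was present in the single windows of Batf and Fos or in any of the 3 windows of Jdp2. Only exact matches were sought, and the windows begin 250 bases before the RefSeq start. STAT sites further upstream or with other letters, which may include the sis-inducible element of Fos, could not be found. Of all 32851 promoter windows 8.3% held the first and 7.81% the second, and the matches of the 2 motifs were counted separately. The site before the approximate start of Batf was centred 0.4 kb away, and the 2 nearest before that of Fos 0.15 kb and 0.5 kb away. With gene limits known to about 1 kb, which of them lie in the windows shown could not be told. The windows contained 49.7% G and C for Batf, 58.7% for Fos and 71.7% for Jdp2, against a median of 52.7% over all windows.

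The STAT3 library had 20784388 reads on nuclear chromosomes and the STAT5 library 17963766, and levels are given as RPM, scaled to these totals. Over the whole interval there were 10364 STAT3 and 7534 STAT5 reads, or 499 and 419 RPM, a STAT3 over STAT5 ratio of 1.19 with an exact conditional 95% interval of 1.15 to 1.22. All intervals here cover counting error only, since there was 1 library per antibody. Per kb, the interval held 4.06 times the genome mean with STAT3 and 3.41 times with STAT5. Sites were denser than elsewhere, at 15.2 per 100 kb against 3.65 over the genome. The median site had 50 STAT3 and 47.5 STAT5 reads in 400 bp, against 33 and 39 over all sites. Bins of 10 kb without a called site region held 39.8% of the STAT3 and 28.8% of the STAT5 reads. When the libraries were scaled by these bins, every STAT3 over STAT5 ratio fell to 0.723 of its RPM value, and that of the whole interval became 0.859. Ratios by RPM between 1 and 1.38 therefore change direction with the scaling, and those below 1 do not.

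Of the 44 sites, 4 were called higher with STAT3 and 10 with STAT5, where a call needs the whole interval of the ratio beyond 2-fold. That is 9.09% and 22.7% of the sites, against 2.42% and 25.1% of all sites in the genome, and since the interval was chosen for a STAT3-higher site nothing is read from the first share. The STAT3-higher sites were 2 of Batf, 1 of Fos and 1 between Fos and Jdp2. The STAT5-higher sites were 1 of Batf, 2 of Fos, 3 of Jdp2 and 4 in none of them. With scaling by bins without a site, 1 of the 4 STAT3-higher calls and all 10 STAT5-higher calls held, and 2 further sites, at 86959500 and 87038400, were called higher with STAT5. That scaling lowers every ratio of the genome alike. The genome shares above are by RPM and those under it are not given here, so nothing particular to the interval is read from these changes. Called regions of both libraries overlapped at 22 of the 44 sites, while 7 were STAT3 regions only and 15 STAT5 regions only. Over the genome 47.7% of sites were of both. Only means that no region of the other library was called there, not that its reads were absent. The STAT5-only site at 86814850 had 195 STAT3 and 111 STAT5 reads, and the STAT3-only site at 86814500 had 349 and 92.

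**Figure D1:**
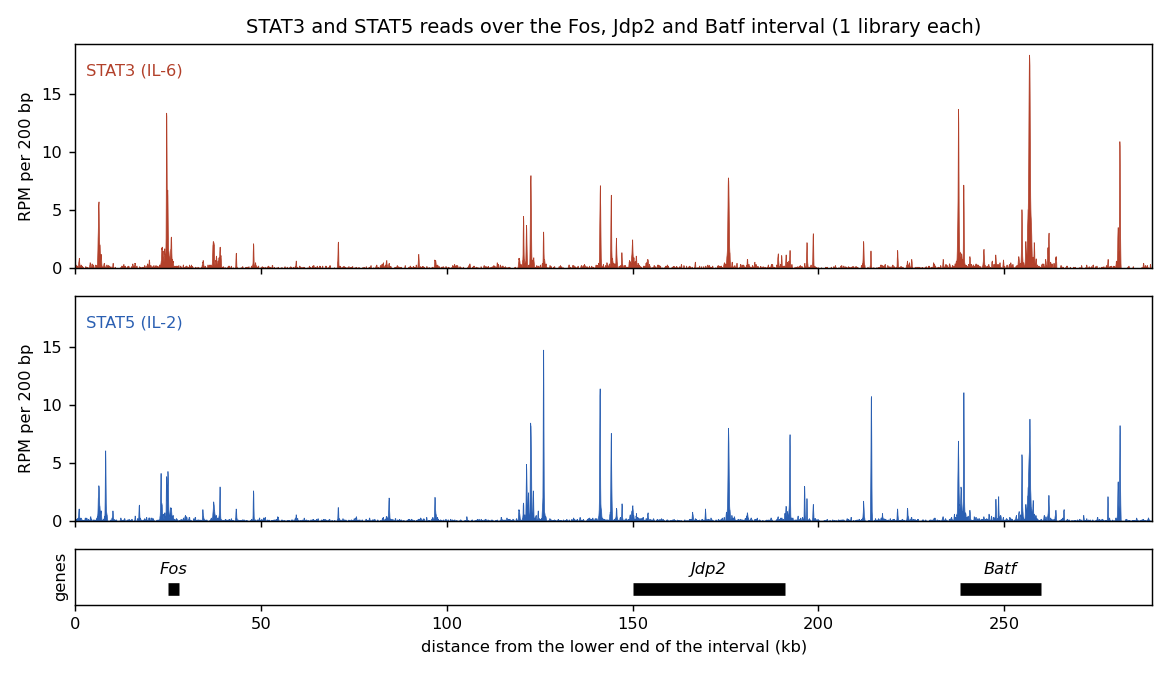
Read level (RPM of nuclear reads) in 200 bp windows moved by 50 bp, STAT3 above and STAT5 below, with distance from the lower end of the interval in kb and black bars for the approximate extent of each gene. The tallest STAT3 window, with 18.4 RPM, lies near the far end of Batf, and the tallest STAT5 window, with 14.8 RPM, between Fos and Jdp2.

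Batf, which holds the site the interval was chosen for, carried the most reads of the 3 genes with STAT3 and, by a small margin over Jdp2, also with STAT5. With 10 kb on each side it held 3169 STAT3 and 1854 STAT5 reads, 75.5 and 44.1 per kb, which is 8.57 and 5.80 times the genome means. For STAT5 there were 1783 reads around Jdp2 and 714 around Fos. The STAT5 intervals of Batf (98.6 to 108 RPM) and Jdp2 (94.7 to 104 RPM) overlap. In site reads alone Jdp2 had more STAT5 reads, 1015 against 831 for Batf. The ratio of RPM for Batf was 1.48 (1.39 to 1.57), and 1.07 under the scaling by bins without a site. Its tallest site, from 87046451 to 87047000, lies 18.7 kb past the approximate start and 3.3 kb before the end. It had 705 STAT3 and 260 STAT5 reads in 400 bp, and ranked 5 by STAT3 reads but 5412 by STAT5 reads among the 86148 sites. The ratio there was 2.34 (2.03 to 2.71), and 1.69 (1.47 to 1.96) under the scaling by bins without a site, which is not wholly beyond 2-fold.

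That Batf site was close to the most reads the files can show. No position of a strand holds more than 1 read in them, so 800 is the limit in 400 bp, and 88.1% of it was reached by STAT3 and 32.5% by STAT5. In 7 bins of 50 bp there were over 75 of 100 possible STAT3 reads, and 1 bin was full. STAT5 had no such bin and at most 45 reads. With counts corrected for positions already taken, as if reads fell evenly over the 800 positions, the ratio was 4.69. The STAT3 bins there ran from 63 to 100 reads, and no interval was made for the corrected ratio. STAT5 bins held 28 reads 125 bp before the centre, 19 at 25 bp before it and 45 at 175 bp after it. Whether they form more than 1 peak was not tested. The median STAT3 fragment lay 6 bp past the centre and the median STAT5 fragment 44 bp past it.

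**Figure D2:**
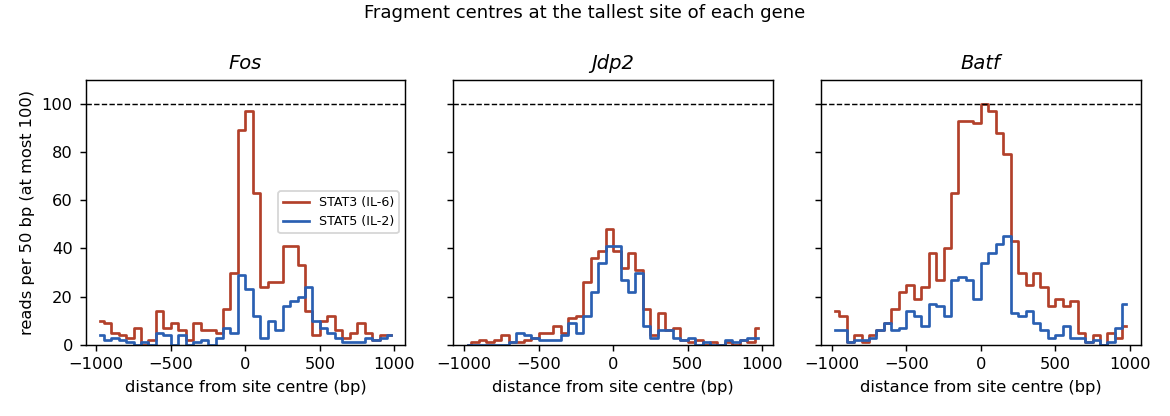
Fragment centres per 50 bp bin around the tallest site of Fos, Jdp2 and Batf, with the dashed line at the most reads a bin can hold. STAT3 reaches 97 of 100 at Fos, 48 at Jdp2 and 100 at Batf, and STAT5 reaches 29, 41 and 45.

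The start of Batf held a pair of sites 1400 bp apart with different ratios. The one centred 0.4 kb before the approximate start, at 87027600, had 376 STAT3 and 172 STAT5 reads (ratio 1.89, 1.57 to 2.28), and ranked 567 by STAT3 reads. The other, 1 kb past the start at 87029000, had 168 STAT3 and 240 STAT5 reads (ratio 0.605, 0.494 to 0.740). Their intervals do not overlap, and the first was higher with STAT3 and the second with STAT5 under either scaling. In fixed windows of 200 bp, 191 STAT3 and 67 STAT5 reads fell from 87027600 to 87027799, and 101 STAT3 and 156 STAT5 reads from 87029000 to 87029199.

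Inside Batf, smaller sites followed. The site at 87034450 had 50 STAT3 and 8 STAT5 reads (ratio 5.40, 2.54 to 13.2), and was called higher with STAT3 by RPM but not under the other scaling, where the ratio was 3.90 (1.84 to 9.54). At 87037650 there were 34 STAT3 and 41 STAT5 reads (ratio 0.717, 0.441 to 1.16), and at 87038400, 12 and 39. Past the end, the site at 87051950 had 78 STAT3 and 52 STAT5 reads (ratio 1.30, 0.901 to 1.88). The last Batf site, at 87056000, had 0 STAT3 and 19 STAT5 reads. The exact interval put the STAT3 over STAT5 ratio there at 0.185 or lower, so that the site was at least 5.40-fold higher with STAT5. Summed over its 8 sites, Batf had 1423 STAT3 and 831 STAT5 reads in 3200 bp (ratio 1.48, 1.36 to 1.61), and without the tallest site the ratio was 1.09 (0.972 to 1.22). With all 8 sites corrected for positions already taken it was 2.33.

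Fos, the immediate early gene, had its tallest STAT3 site just before its start. With 10 kb on each side there were 1325 STAT3 and 714 STAT5 reads, 57.6 and 31.0 per kb, a ratio of 1.60 (1.46 to 1.76), or 1.16 under the other scaling. The site at 86814500, about 0.5 kb before the start, had 349 STAT3 and 92 STAT5 reads (ratio 3.28, 2.60 to 4.17), and ranked 738 by STAT3 reads. Under the scaling by bins without a site it was 2.37 (1.88 to 3.02), no longer wholly beyond 2-fold. A second site 350 bp further, at 86814850, had 195 STAT3 and 111 STAT5 reads (ratio 1.52, 1.20 to 1.93), and shares 50 bp with the first.

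Along the start of Fos the ratio changed over short distances. In the window from 86814400 to 86814599 there were 279 STAT3 and 69 STAT5 reads (ratio 3.49, 2.68 to 4.62). From 86814600 to 86814799 there were 116 STAT3 and 35 STAT5 reads (2.86, 1.95 to 4.31). From 86814800 to 86814999 there were 93 STAT3 and 72 STAT5 reads (1.12, 0.812 to 1.54). The intervals of the first and the third window do not overlap. Reads were also above the genome mean inside the gene, where 3 kb held 210 STAT3 and 99 STAT5 reads, 7.95 and 4.33 times the genome means, although no site was centred there.

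The other 2 sites within 10 kb before Fos were called higher with STAT5. At 86813000, 2 kb before the start, there were 21 STAT3 and 92 STAT5 reads (ratio 0.197, 0.117 to 0.320), and the call was lost when reads were counted in 800 bp (0.464, 0.339 to 0.630). At 86807150 there were 4 STAT3 and 28 STAT5 reads (0.123, 0.0315 to 0.353). The site at 86827150, 9.15 kb past the end, had 93 STAT3 and 45 STAT5 reads (1.79, 1.24 to 2.61), and 1.01 when counted in 200 bp. Summed over the 5 sites, Fos had 662 STAT3 and 368 STAT5 reads (ratio 1.55, 1.37 to 1.77). The 26 STAT3 and 10 STAT5 reads in the 50 bp that neighbouring sites share are counted in both. Without the tallest site the ratio was 0.980 (0.831 to 1.16).

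At Jdp2, the repressor, the sites summed had more STAT5 than STAT3 RPM. Over 11 sites there were 952 STAT3 and 1015 STAT5 reads in 4400 bp (ratio 0.811, 0.741 to 0.886), against 1.48 for Batf and 1.55 for Fos. The median ratio of single sites was 0.788 for Jdp2, 1.01 for Batf and 1.52 for Fos, against 0.803 over all sites of the genome. Jdp2 thus lay near the genome value. Without the tallest site of each gene, which for Batf is the site the interval was chosen for, the ratios were 0.729 (0.656 to 0.809) for Jdp2, 1.09 for Batf and 0.980 for Fos. The 4 sites within the gene alone gave 1.04. With all reads of the gene and 10 kb on each side, 2242 STAT3 and 1783 STAT5, the ratio was 1.09 (1.02 to 1.16), and 0.785 under the scaling by bins without a site. The tallest Jdp2 site, at 86965700 in the gene, had 289 STAT3 and 229 STAT5 reads (ratio 1.09, 0.914 to 1.30).

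Before Jdp2, a pair of sites was slightly higher with STAT5. The site at 86931150 had 208 STAT3 and 250 STAT5 reads (0.719, 0.595 to 0.868), with the median STAT3 fragment 46 bp past the centre, against 20.5 bp before it for STAT5, the widest offset in the interval among sites with 50 or more reads of each. The site at 86934150 had 155 STAT3 and 170 STAT5 reads (0.788, 0.630 to 0.985). Past the gene, the site at 86982250 had 39 STAT3 and 158 STAT5 reads (0.213, 0.146 to 0.305), and that at 86986150 had 10 and 63 (0.137, 0.0628 to 0.269). The site at 86988500 had 76 STAT3 and 31 STAT5 reads (2.12, 1.38 to 3.33). Within the gene, 86956050 had 3 STAT3 and 19 STAT5 reads (0.136, 0.0259 to 0.464), a call lost in 800 bp (0.206, 0.0606 to 0.561). The other 3 Jdp2 sites were not called by RPM and had 5 to 61 STAT3 and 8 to 35 STAT5 reads. The site nearest the approximate start of Jdp2, at 86939900 and named here after its values were seen, had 71 STAT3 and 33 STAT5 reads (1.86, 1.21 to 2.90).

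**Figure D3:**
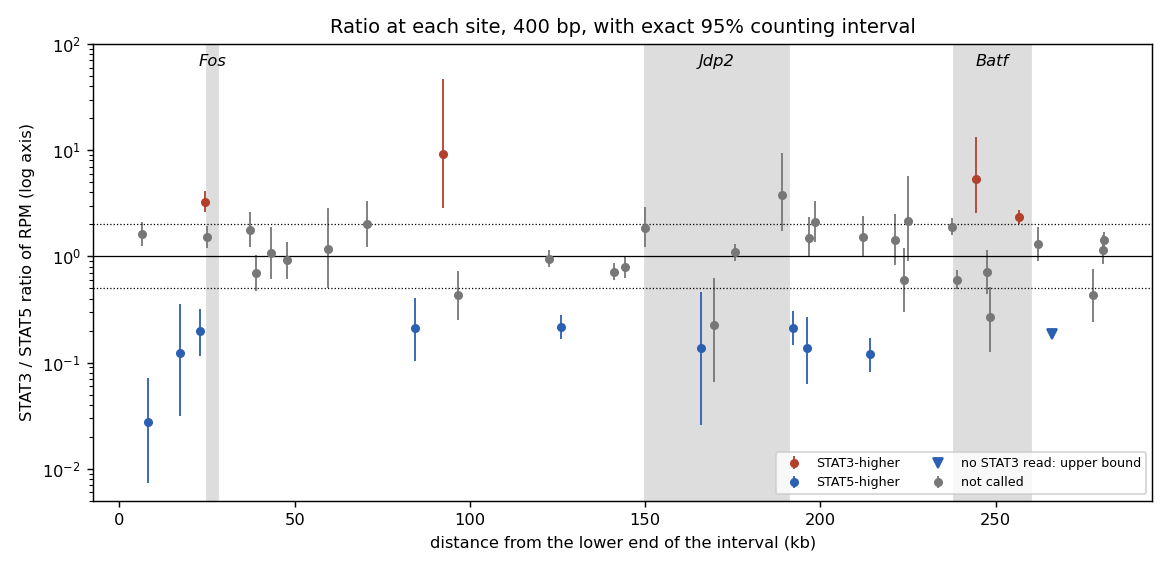
STAT3 over STAT5 ratio of RPM in 400 bp at each of the 44 sites on a log axis, with exact 95% counting intervals, against distance from the lower end of the interval. Grey bands are the genes, dotted lines mark 2-fold either way, and the triangle is the upper bound at the site without a STAT3 read. Called sites of either kind lie beside and between the genes as well as in them.

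Between the genes, the most STAT5 reads lay 24.05 kb before Jdp2. The site at 86915950 had 77 STAT3 and 308 STAT5 reads (ratio 0.216, 0.166 to 0.278), while 86912450, the site before it, had 248 and 226, a ratio of 0.948 (0.789 to 1.14). Between Jdp2 and Batf the site at 87004150 had 35 STAT3 and 251 STAT5 reads (0.121, 0.0821 to 0.172). Its few STAT3 reads lay to one side, with a median 129 bp before the centre. A site at 86874350 had 12 STAT3 and 49 STAT5 reads (0.212, 0.102 to 0.404), and 86882350 had 32 and 3, a ratio of 9.22 (2.88 to 47.1) that was no longer called in 800 bp (3.67, 1.67 to 9.18). No other site between the genes was called, and these held 15 to 62 STAT3 and 8 to 62 STAT5 reads apart from 86912450. The RefSeq gene table, on another build, lists 2 long non-coding RNAs and no protein-coding gene between Fos and Jdp2, and 1 pseudogene between Jdp2 and Batf.

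At the ends of the interval, the sites were as follows. The last site inside the upper end, at 87071000, had 295 STAT3 and 180 STAT5 reads (1.42, 1.17 to 1.71), and the next one outside, at 87086850, had 64 and 50. The first site inside the lower end, at 86796300, had 173 STAT3 and 93 STAT5 reads (1.61, 1.24 to 2.09), and the nearest one outside, at 86788200, had 172 and 182. Next to the first, at 86798100, were 4 STAT3 and 126 STAT5 reads (ratio 0.0274, 0.00736 to 0.0720), the lowest in the interval among sites with a read of both.

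Neighbouring sites were compared by a rule made after their values were seen. Of 10 pairs of sites 400 to 2500 bp apart in the interval, 6 had ratio intervals that did not overlap, against 55.6% of such pairs in the genome. By RPM, in 3 of the 10 pairs one site was higher with STAT3 and the other with STAT5, by intervals wholly on either side of 1. In the genome 14.6% of pairs were of this kind. The 3 pairs stood at the starts of Batf and Fos and before Fos. Under the scaling by bins without a site, the ratio at 86796300, in the pair before Fos, fell from 1.61 to 1.16. Its interval by RPM began at 1.24, below 1.38, so under that scaling it was not wholly above 1.

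Fragment positions were compared at the 16 sites with 50 or more reads of each library. The median fragment differed by a median of 14.8 bp between STAT3 and STAT5 (quartiles 6.13 and 29.1), with 10 sites within 25 bp. Over the 22055 such sites of the genome the median was 15 bp, and 70.3% were within 25 bp. The middle 50% of fragments spanned a median of 104 bp with STAT3 and 101 bp with STAT5, and at the tall Batf site 184 bp and 202 bp.

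Reads outside the sites were also above the genome mean around all 3 genes. Outside here means beyond the 400 bp counted at each site, so edges of sites and peaks that were not called are included. Around Batf the outside reads numbered 45.0 STAT3 and 26.4 STAT5 per kb, 5.11 and 3.46 times the genome means. Of these 1746 STAT3 and 1023 STAT5 reads, 137 and 115 lay in 400 bp around 87044650, which is not among the 44 sites. Around Fos the outside reads were 3.72 and 2.22 times the means, around Jdp2 2.59 and 1.78 times, and between Jdp2 and Batf 1.19 and 0.851 times. The STAT3 over STAT5 ratio outside the sites was 1.48 (1.36 to 1.60) around Batf, 1.67 (1.47 to 1.91) around Fos and 1.45 (1.33 to 1.59) around Jdp2. In 10 kb bins of the genome without a called region it was 1.38.

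**Figure D4:**
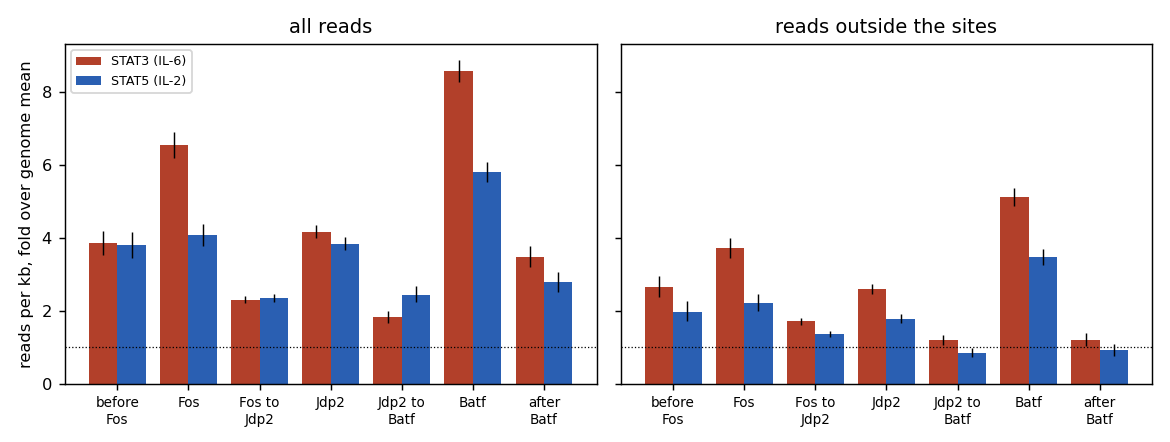
Reads per kb as fold over the genome mean of each library, for each gene with 10 kb on each side and the stretches between. The left panel holds all reads and the right panel those outside the 400 bp windows of the sites. STAT3 stands left of STAT5 in each pair, with exact 95% Poisson bars. Batf stands highest in both panels, with 8.57 and 5.80 over all reads and 5.11 and 3.46 outside the sites.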

How the data were processed

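Each deposited file lists 1 aligned read of 25 nt per line, with start, end and strand. The deposited score was 0 in every line and was not used. Per the submitters' processing notes the reads are on mm9. No source used here names the aligner. The deposited files hold no repeated position and strand, which limits 400 bp to 800 reads and compresses ratios at tall sites.

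With Python 3.11.15 (scipy 1.17.1, numpy 2.4.6, pandas 2.3.3, figures by matplotlib 3.10.9), read 5′ ends were moved 50 bp in the 3′ direction and counted in 200 bp windows, step 50 bp. Windows with at least 5 reads, 4-fold over each of 3 means (of 5 kb, of 10 kb and of the whole genome), and a Benjamini-Hochberg adjusted Poisson p of 1e-05 or below were joined within 100 bp. Regions with over 80% of summit reads on 1 strand were left out, and overlapping regions were merged into sites. The local means include neighbouring sites, so sites in dense stretches can be missed. Reads in 400 bp around each centre gave exact conditional 95% intervals. No p is given between single libraries. The caller was tested on simulated reads. Genes of the AP-1 family elsewhere were not analysed here.

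The genes, lists and rules were chosen with earlier results of these data known. Named sites were the 5 with most reads per gene and elsewhere, every called site, and those at the ends. Alternatives changed caller thresholds, shift, width, scaling, ratio limit, gene extension, flanks and taken positions.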

Additional observations from a re-analysis of the deposited data

How the results depend on the processing

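Scaling by 10 kb bins without a region lowered the ratios of site reads to 1.12 for Fos, 0.586 for Jdp2 and 1.07 for Batf, and those of all reads to 0.859 for the whole interval, 1.16 for Fos, 0.785 for Jdp2 and 1.07 for Batf, and left 1 site higher with STAT3. For all reads the whole interval and Jdp2 thereby changed direction, while the site reads of Jdp2 stayed below 1. A minimum fold of 8 left 11 STAT3 and 15 STAT5 regions in 20 sites, of which 0 were called higher with STAT3 and 6 with STAT5. The tall Batf site was thus not among those called higher. The local means include the reads of a site itself, and shares over the genome under this setting are not given here. The genome-wide mean alone gave 52 STAT3 regions. Correction for positions already taken raised the ratio to 1.79 for Fos and 2.33 for Batf. Counting in 800 bp gave 1.83 for Fos and counting in 200 bp 0.715 for Jdp2. Without the 10 kb extension the site reads of Jdp2 gave 1.04, also a change of direction, and Fos held no site. In 34 of 52 recalculations of the main values the result stayed within 1.5 times for a count, within the exact 95% interval for a ratio, or within the quartiles for the fragment offset. The cause of these changes was not tested. No paired analysis was possible because there was 1 library per antibody. Depth limits the sites with few reads: at 3 reads of STAT5 the ratio of one site ran from 2.88 to 47.1.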

Other observations

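The following values were looked up after the data were seen. Against the genome-wide mean alone, the interval held 62 sites, of which 23 took in none of the 44 sites, 8 of them assigned to Batf and 7 to Jdp2. The tallest of the 23, from 87044351 to 87045050 in Batf and centred at 87044650, had 137 STAT3 and 115 STAT5 reads (ratio 1.03, 0.798 to 1.33). Mismatched reads made up 1.83% of STAT3 and 1.59% of STAT5 reads in the interval, and no position had more than 2 of them.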
